A study of Mus musculus with 6 samples.

Results

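The genes described here are 10 members of the CXC and CX3C chemokine system: the ligands Cxcl13, Cxcl12, Cxcl14, Cxcl16, Cxcl1, Cxcl2, Cxcl10 and Pf4 (CXCL4) and the receptors Cxcr4 and Cx3cr1. They were taken by gene symbol, and 18 probe sets of the array carried 1 of these symbols and no other. A probe set is the group of short probes that together read 1 transcript. Of the 10 genes, 8 had a probe set bright enough to be tested, among 12511 genes tested in all.

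The cells were resident macrophages of the mouse peritoneal cavity, sorted as high in CD11b and low or negative in MHC class II. Each group, Gata6-KO (mice with a conditional, floxed deletion of the transcription factor gene Gata6) and Gata6-WT (wild type mice), held 3 samples, each a pool of cells from 2 to 3 mice aged 7 weeks and each read on 1 array. The mice are described as matched by sex, and the sources used here do not give each pool's sex, the Cre line or which part of Gata6 was deleted. The study compared the genotypes, and the labels call the pools biological replicates.

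Chemokines are small secreted proteins that guide moving leukocytes through G protein-coupled receptors, and the CXC and CX3C classes are named for the spacing of their first cysteines. CXCL13 attracts B cells through CXCR5, and macrophages of body cavities are a known source of it for B-1 cells. CXCL12 acts on CXCR4 and is taken up by the atypical receptor ACKR3; CXCL1 and CXCL2 attract neutrophils through CXCR2; CXCL10 is an interferon-induced ligand of CXCR3. CXCL16 is made as a membrane protein that also binds oxidised lipoprotein, and is released by the proteases ADAM10 and ADAM17.

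All values are deposited MAS5 signals on a linear scale, and differences are Gata6-KO minus Gata6-WT on the log2(signal + 16) scale, which understates the change of low signals. Signals of different probe sets are not on a common scale and are not compared. Median array signals lay between 79.7 and 88.5. The check of the targeted gene was mixed: 2 of 3 Gata6 probe sets were lower in Gata6-KO (log2 -0.88 and -1.15, limma adjusted p = 0.011 and 0.0043) and the third was not (log2 -0.01, adjusted p = 0.98), and whether any of them lies in the deleted part is not known here. The replicates numbered 1 of both genotypes had male-type expression (Xist at 102 and 113, against 11158 to 13749 on the other 4 arrays), so differences are also given for the female-type arrays (2 against 2) and the male-type arrays (1 against 1, with no test). All 8 macrophage markers were tested. In Gata6-KO 3 fell and 1 rose, beside 7.46% and 5.61% of all genes. The other 4 did not pass, among them Lyz2 (60996 to 84137) and Csf1r (46856 to 63302). Adgre1, which encodes F4/80, fell from 39618, 42302 and 47450 to 8528, 14617 and 13301 (log2 -1.86, limma adjusted p = 0.00027). Cd68 (log2 -0.41, adjusted p = 0.031) and Icam2 (log2 -0.56, adjusted p = 0.029) fell and Mertk rose (log2 0.43, adjusted p = 0.031), each a call kept in 1 of the 6 fits with 1 array left out (the fit without Gata6-WT replicate 1 for Cd68 and Icam2, and without Gata6-WT replicate 3 for Mertk). The list summed to 203900 to 220763 in Gata6-KO and 222026 to 271534 in Gata6-WT, without overlap.

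Sequence just upstream of the start sites was examined for 3 of the 4 ligands that fell (Cxcl13, Cxcl12 and Cxcl14) and for Cxcl1 and Cxcl2, which were highest on the same array. Windows of 250 bases were read from RefSeq (GRCm38.p6) for 9 of the 10 members, all but Cxcl16. Capitals mark matches, on either strand, to a GATA word (the words AGATAA and also AGATAG, and besides these TGATAA and also TGATAG), to a kappaB word (GGGNNNTTCC) and to an interferon-type word (GAAANNGAAA), or, on the gene's strand, to the TATA word TATAAA. Matches on the 2 strands can overlap. The Cxcl13 window is chr5:95956689-95956938, plus strand, the Cxcl12 window chr6:117168285-117168534, plus strand, and the Cxcl14 window chr13:56296552-56296801, minus strand.
Cxcl13: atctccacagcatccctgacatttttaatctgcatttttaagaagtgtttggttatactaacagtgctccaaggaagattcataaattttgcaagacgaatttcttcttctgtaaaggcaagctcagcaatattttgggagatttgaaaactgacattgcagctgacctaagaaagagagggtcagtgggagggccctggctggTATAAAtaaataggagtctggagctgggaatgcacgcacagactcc
Cxcl12: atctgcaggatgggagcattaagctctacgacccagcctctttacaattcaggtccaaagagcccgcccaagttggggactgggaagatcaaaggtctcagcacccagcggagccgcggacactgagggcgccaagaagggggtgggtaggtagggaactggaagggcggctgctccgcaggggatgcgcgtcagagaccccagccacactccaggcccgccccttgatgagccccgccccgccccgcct
Cxcl14: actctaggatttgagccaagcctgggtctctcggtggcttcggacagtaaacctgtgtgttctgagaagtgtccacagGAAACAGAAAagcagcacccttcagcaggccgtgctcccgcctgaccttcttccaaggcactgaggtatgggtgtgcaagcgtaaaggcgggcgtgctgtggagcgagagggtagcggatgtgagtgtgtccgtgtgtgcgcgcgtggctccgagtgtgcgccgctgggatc

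None of these 3 windows held a GATA word, which 26.5% of the 32851 windows in the table held. The Cxcl13 window held 1 TATA word starting 46 bases before the start site (7.59% of all windows held that word), the Cxcl14 window held 1 interferon-type word (2.98% of all windows), and the Cxcl12 window held no match. Among the other members, Cxcl10 and Cx3cr1 each had 1 GATA word. A match is a string of letters and not a shown binding site.

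The Cxcl1 window is chr5:90890995-90891244, plus strand, and the Cxcl2 window chr5:90903649-90903898, plus strand, written with the same capitals.
Cxcl1: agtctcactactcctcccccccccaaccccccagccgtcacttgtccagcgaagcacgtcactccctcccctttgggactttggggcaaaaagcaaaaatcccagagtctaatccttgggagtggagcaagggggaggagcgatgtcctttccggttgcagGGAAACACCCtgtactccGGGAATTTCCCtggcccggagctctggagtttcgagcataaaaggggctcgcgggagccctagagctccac
Cxcl2: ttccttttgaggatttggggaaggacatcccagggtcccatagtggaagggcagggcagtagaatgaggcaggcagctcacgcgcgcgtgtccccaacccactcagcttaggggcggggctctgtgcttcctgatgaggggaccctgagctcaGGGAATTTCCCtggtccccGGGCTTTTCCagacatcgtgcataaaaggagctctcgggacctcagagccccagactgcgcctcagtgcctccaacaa

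Both windows carried kappaB words, which 4.65% of all windows held, and neither held a GATA word. They shared a run of 14 bases, GGGAATTTCCCTGG, which starts 71 bases before the start of Cxcl1 and 97 before that of Cxcl2. The Cxcl10 window also held kappaB words, 2 of them, and 1 interferon-type word.

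Of the 8 genes tested, 4 fell in Gata6-KO macrophages, 0 rose and 4 did not pass the test. The 4 that fell were the ligands Cxcl13, Cxcl12, Cxcl14 and Cxcl16. Over all 12511 genes, 13.1% passed (limma, Benjamini-Hochberg adjusted p under 0.05), 7.46% as lower and 5.61% as higher; over all 27022 probe sets tested, 10.8% passed. The median log2 difference was -0.84 over the 8 genes and -0.04 over all genes. The arrays of the 2 genotypes did not overlap for 4 of the 8 genes, the same 4 that fell, beside 34.4% of all genes. Each of the 4 had a mean signal above the filter (47.5) in both genotypes, so none was tested only through its wild type level. In bulk RNA, fewer cells that make a transcript and less of it per cell cannot be told apart.

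**Figure D1:**
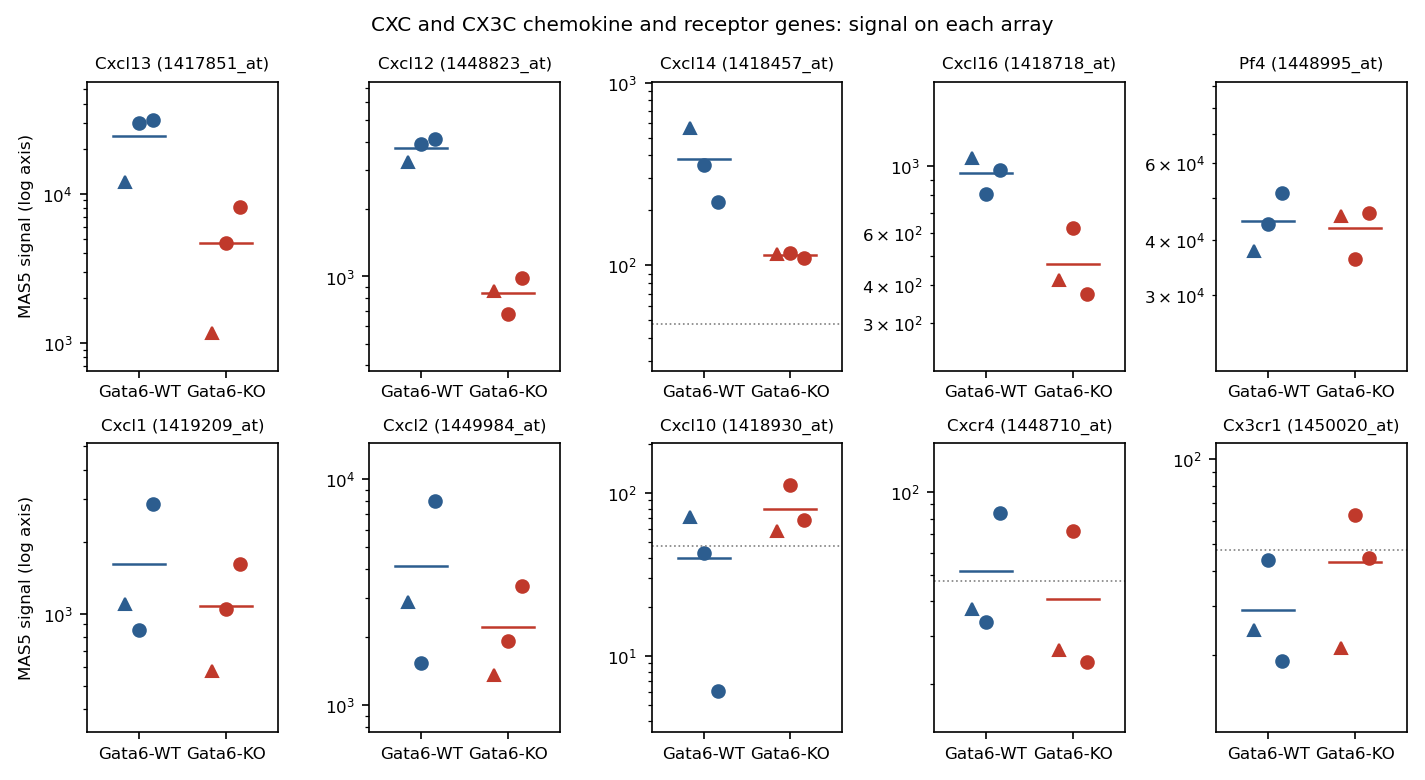
MAS5 signal (log axis) of each of the 10 genes at its probe set with the highest mean, in 3 Gata6-WT arrays (blue) and 3 Gata6-KO arrays (red); triangles are male-type and circles female-type arrays, bars are means of the signals, and the dotted line, where in range, is the signal of 47.5 at the filter. The genotypes do not overlap for Cxcl13, Cxcl12, Cxcl14 and Cxcl16, and overlap for the other 6 genes.

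Cxcl13 had the largest fall of the 10 genes over all 6 arrays, though not without Gata6-KO replicate 1 (log2 -1.87, against -2.18 for Cxcl12), and the difference between the genes was not tested. At its brighter probe set the Gata6-WT replicates 1, 2 and 3 had signals of 11986, 29908 and 31387, and the Gata6-KO replicates had 1167, 4646 and 8105. Every Gata6-KO array lay below every Gata6-WT array, and within each genotype the male-type replicate 1 was the lowest. The means were 24427 ± 10800 and 4639 ± 3469 (SD, n = 3), a 6.32-fold fall (log2 -2.66 ± 0.62 SE, limma adjusted p = 0.024). The second probe set, with 9800, 21830 and 26319 against 1031, 3128 and 5411, gave a 6.81-fold fall (log2 -2.77 ± 0.54, adjusted p = 0.011).

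The Gata6-KO arrays differed widely among themselves in Cxcl13, keeping 4.78%, 19.0% and 33.2% of the wild type mean in replicates 1, 2 and 3. The log2 difference at the brighter probe set was -2.32 in the female-type arrays and -3.34 in the male-type arrays, and with a term for sex-linked expression the adjusted p of limma was 0.00037. The call at this probe set was lost without Gata6-WT replicate 2 (adjusted p = 0.083) or replicate 3 (0.078), and the fold ran from 3.64 to 9.55 with 1 array left out, the lowest without Gata6-KO replicate 1 and the highest without Gata6-KO replicate 3. At the second probe set the call was kept in all 6 such fits (adjusted p up to 0.045). Without the variance trend of limma neither probe set passed (adjusted p = 0.095 and 0.063). CXCR5, the receptor for CXCL13, had no called change in these cells: Cxcr5 was at 87.0, 66.3 and 46.5 in Gata6-KO and 40.1, 24.9 and 67.5 in Gata6-WT (log2 0.49, adjusted p = 0.49).

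Cxcl12, which retains haematopoietic cells in the marrow and is made by stromal cells of many tissues, had the smallest standard error of the 4 genes that fell. Its brightest probe set had 3266, 3907 and 4137 in Gata6-WT and 858, 681 and 982 in Gata6-KO. The groups lay far apart relative to their spread, at 3770 ± 451 and 840 ± 152 (SD, n = 3), a 4.45-fold fall (log2 -2.15 ± 0.16, limma adjusted p = 4.7e-05). The second probe set fell 5.49-fold, from 618, 517 and 795 to 139, 142 and 51.5 (log2 -2.46 ± 0.33, adjusted p = 0.0014). The call held at both with any 1 array left out, and the log2 differences at the brightest were -2.27 in the female-type and -1.91 in the male-type arrays. The third Cxcl12 probe set stayed below the filter, at 13.2 to 59.2 in Gata6-KO and 15.6 to 83.3 in Gata6-WT, with overlapping groups.

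The receptors of CXCL12 gave no called change. Cxcr4 was below the filter, at 26.5, 72.2 and 24.0 in Gata6-KO and 37.6, 33.7 and 83.7 in Gata6-WT, and was not tested. These groups overlap, and the 95% interval of the log2 difference, from a fit without the filter, ran from -1.34 to 0.79. Ackr3, the scavenging receptor, had 2881, 4740 and 5659 in Gata6-KO against 5775, 5536 and 3944 (log2 -0.23, adjusted p = 0.60).

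Cxcl14, a ligand made by many epithelia, fell to a nearly constant level at 1 of its 2 probe sets. The probe set with the higher mean had 564, 355 and 222 in Gata6-WT and 116, 116 and 109 in Gata6-KO. The wild type arrays spread over a wide range while the Gata6-KO arrays were close to one another. The means were 380 ± 173 and 114 ± 3.82 (SD, n = 3; 2.86-fold, log2 -1.52 ± 0.30, limma adjusted p = 0.011). At the second probe set the groups overlapped, at 247, 199 and 151 against 88.9, 140 and 161, and the test was not passed (log2 -0.57, 95% interval -1.18 to 0.04, adjusted p = 0.23). The call at the first probe set was kept with any 1 array left out but not in the female-type arrays alone (log2 -1.20, adjusted p = 0.057).

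Cxcl16 fell about as much at both of its probe sets. The first had 1065, 809 and 972 in Gata6-WT and 417, 622 and 373 in Gata6-KO, and the groups did not overlap. The means were 949 ± 130 and 471 ± 133 (SD, n = 3; 2.02-fold, log2 -1.01 ± 0.20, limma adjusted p = 0.012), and the second probe set fell 2.16-fold (log2 -1.11 ± 0.19, adjusted p = 0.0064). In the female-type arrays alone neither passed (log2 -0.86 and -0.95, adjusted p = 0.11 and 0.063), and without the variance trend of limma the first had an adjusted p of 0.055. All 7 probe sets of these 4 genes that passed the test were lower in Gata6-KO.

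**Figure D2:**
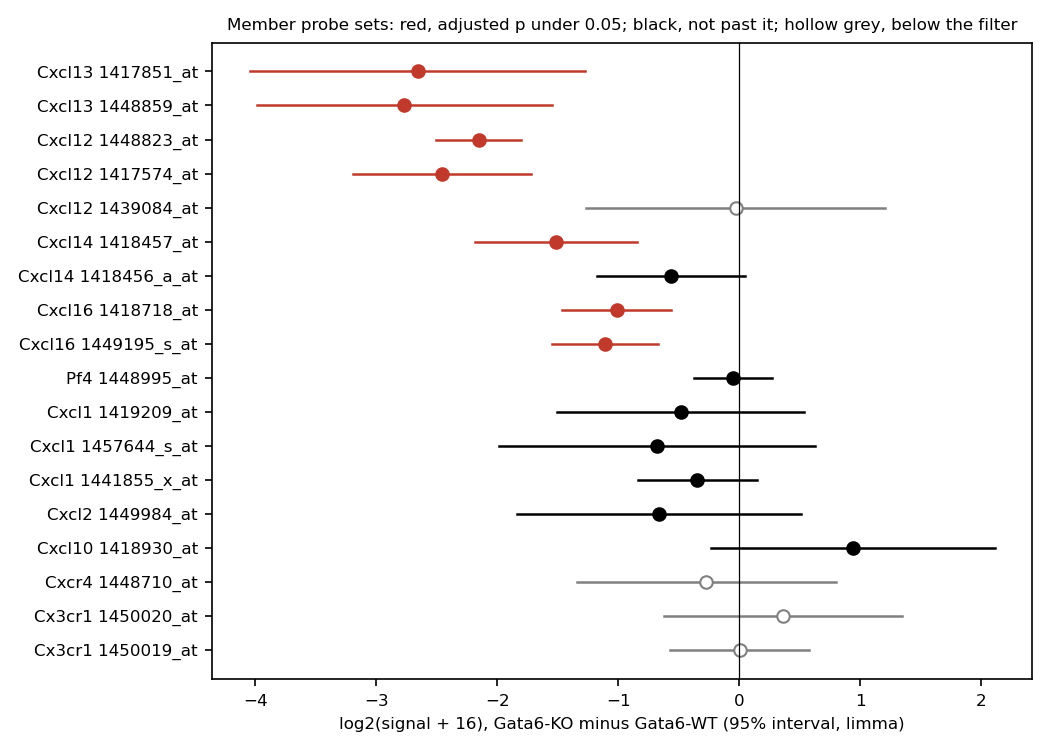
Log2 difference, Gata6-KO minus Gata6-WT, of the 18 probe sets of the 10 genes, with 95% intervals from limma on 3 against 3 arrays; red marks passed the test, black did not, and hollow grey marks lay below the filter and were not tested. The 7 red marks are all below 0, from -2.77 to -1.01, and belong to Cxcl13, Cxcl12, Cxcl14 and Cxcl16.

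A list of proteases that release or trim chemokines, with the surface proteins Cd74, Sdc1 and Sdc4, had 8 genes tested. Of these, 3 rose in Gata6-KO (beside 5.61% of all genes) and 0 fell: the proteases Adam17 and Mmp9, and Cd74. Adam17, one of the proteases that release CXCL16, had 3897, 3304 and 3769 in Gata6-KO against 2363, 2266 and 1819, with no overlap (log2 0.77 ± 0.13, limma adjusted p = 0.0055), and all 3 of its probe sets passed. Adam10, the other CXCL16 protease, did not pass (log2 0.35, adjusted p = 0.069), although 1 of its 3 probe sets did. Cd74, the invariant chain and a receptor for the cytokine MIF, rose (log2 1.02, adjusted p = 0.010). Mmp9, a gelatinase that trims several CXC chemokines, rose (log2 1.33 ± 0.36, adjusted p = 0.044), a call lost when replicate 1 (adjusted p = 0.14) or 2 (0.11) of Gata6-KO, or replicate 1 (0.094) or 2 (0.11) of Gata6-WT, was left out. The call was also lost with a term for sex-linked expression (adjusted p = 0.056), and the second tested Mmp9 probe set did not pass (log2 1.31).

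Pf4, a heparin-binding chemokine stored in platelet granules and also transcribed by macrophages, was bright on every array and did not pass the test. Its signals were 45255, 36134 and 46201 in Gata6-KO and 37735, 43581 and 51149 in Gata6-WT. The groups overlapped, and the difference was small (log2 -0.05, 95% interval -0.37 to 0.27, limma adjusted p = 0.87), with a sign that turned under quantile normalization (0.12) and without Gata6-KO replicate 2 or Gata6-WT replicate 3 (0.06 for each). Of 5 tested megakaryocyte and platelet markers 0 passed; Itga2b, an integrin of platelets, had 247 to 377 in Gata6-KO and 315 to 385 in Gata6-WT. The summed signals of the list were 696 to 765 in Gata6-KO and 790 to 883 in Gata6-WT, and their part in the Pf4 values was not tested.

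The neutrophil attractants Cxcl1 and Cxcl2 varied more among arrays than between genotypes. Cxcl1 had 573, 1046 and 1618 in Gata6-KO and 1100, 853 and 2869 in Gata6-WT at its brightest probe set (log2 -0.48, 95% interval -1.50 to 0.53, limma adjusted p = 0.56). Cxcl2 had 1365, 1926 and 3359 against 2872, 1532 and 8054 (log2 -0.66, 95% interval -1.84 to 0.51, adjusted p = 0.48). The groups overlapped for both genes, and both were highest on Gata6-WT replicate 3 and, within Gata6-KO, on replicate 3.

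The other Cxcl1 probe sets were also highest on Gata6-WT replicate 3, at 2700 and 1049, and did not pass (log2 -0.68 and -0.35, limma adjusted p = 0.52 and 0.37). Without Gata6-WT replicate 3 the log2 difference was 0.03 for Cxcl1 and -0.02 for Cxcl2.

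The same array stood out in a list of immediate early and heat shock genes. Cells switch on immediate early genes within minutes of stimulation or handling. Of the 14 genes of this list tested, 10 were highest on Gata6-WT replicate 3. On Gata6-KO replicate 2, 2 were highest (the heat shock genes Hspa1a and Hspa1b), and 2 on Gata6-KO replicate 3 (Egr2 and Klf6). The share of all genes highest on each array was not counted. Fos, a subunit of the AP-1 factor, had 26266 there and 2291 to 5000 on the other 5 arrays. Dusp1, a phosphatase that limits MAP kinases, had 27558 there and 5351 to 14255 elsewhere. Of the 14, 3 fell in Gata6-KO and 0 rose, beside 7.46% and 5.61% of all genes. The 3 were Ier2 (log2 -1.03, limma adjusted p = 0.0080), Egr1 (log2 -2.21, adjusted p = 0.019, and 0.060 without Gata6-KO replicate 2) and Junb (log2 -0.90, adjusted p = 0.034). The Junb call was kept in 2 of the 6 fits with 1 array left out, those without Gata6-KO replicate 3 or Gata6-WT replicate 2. The part of this array's difference in the Cxcl1 and Cxcl2 values was not tested.

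**Figure D3:**
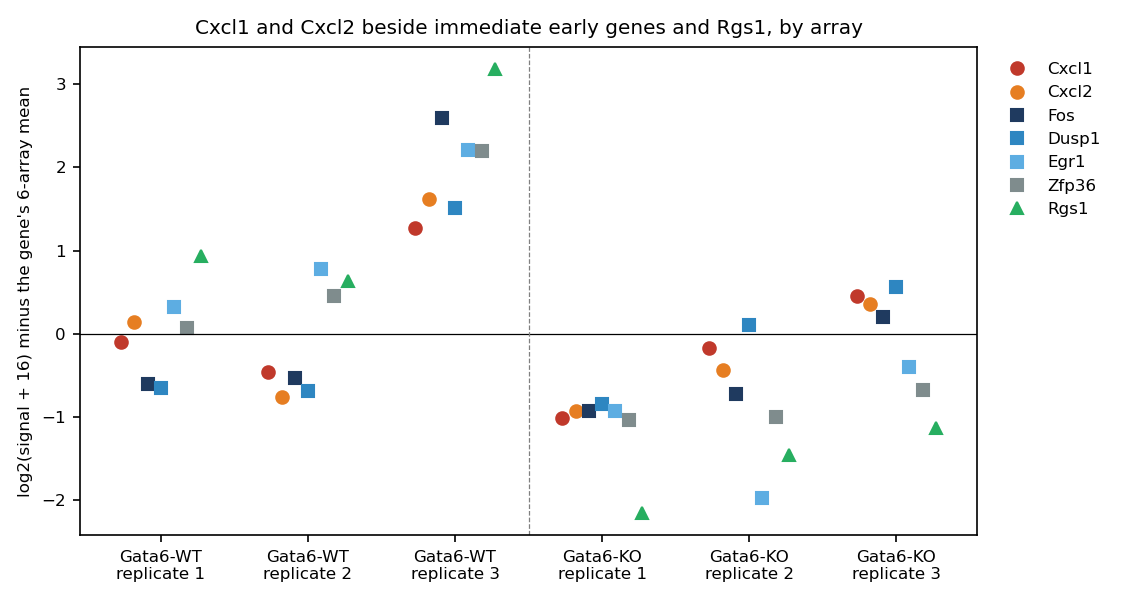
Log2(signal + 16) of Cxcl1, Cxcl2 and 5 genes induced by stimulation or regulating its response (Fos, Dusp1, Egr1, Zfp36, Rgs1) on each of the 6 arrays, as the difference from the gene's mean over the arrays. Each colour is 1 gene at its brightest probe set. All 7 genes drawn are highest on Gata6-WT replicate 3. The immediate early and heat shock genes that are highest on a Gata6-KO array are not drawn.

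Cxcl10, the interferon-induced ligand of CXCR3, was near the filter. It had 58.3, 112 and 67.7 in Gata6-KO and 70.9, 42.9 and 6.13 in Gata6-WT, with overlapping groups. The log2 difference of 0.94 had a 95% interval of -0.23 to 2.11 (limma adjusted p = 0.31), and was 1.52 in the female-type and -0.23 in the male-type arrays. Its receptor gene Cxcr3 did not pass either (log2 0.03, adjusted p = 0.96), nor did Cxcl11, another interferon-induced ligand (log2 0.27, adjusted p = 0.67).

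Cx3cr1, the receptor of the membrane-bound chemokine fractalkine and a marker of many monocytes and tissue macrophages, was below the filter at both probe sets. The first had 21.3, 63.5 and 44.6 in Gata6-KO and 24.6, 43.6 and 19.1 in Gata6-WT, and the second 4.75 to 10.1 over all 6 arrays. The groups overlapped at both. From the fit without the filter, the 95% interval of the log2 difference at the first ran from -0.62 to 1.34. Cx3cl1, which encodes fractalkine, did not pass (log2 -0.91, limma adjusted p = 0.35), with 12.3 on Gata6-KO replicate 1 and 80.0 to 151 on the other 5 arrays.

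The rest of the pathway was read from 7 lists. They held ligands, receptors, processing enzymes, signal transducers, desensitizing proteins and regulators of transcription or mRNA decay, with 64 genes tested. Of these, 6 rose and 9 fell, beside 5.61% and 7.46% of all genes, and the median log2 difference was -0.01. None of the 3 other ligands and 2 other conventional receptors tested passed. Among the 5 atypical receptors, Ackr4, a scavenger of CCL19, CCL21 and CCL25, rose from 99.8, 100 and 87.5 to 214, 214 and 256 (log2 1.12 ± 0.21, limma adjusted p = 0.0082), at 1 of its 2 tested probe sets.

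Genes that damp receptor signalling fell most often: 6 of 11 tested fell and 0 rose, beside 7.46% and 5.61% of all genes, with a median log2 difference of -0.87. Rgs2, a GTPase-activating protein for G protein alpha subunits, had 10542, 11609 and 8138 in Gata6-WT and 1798, 1789 and 1414 in Gata6-KO. The groups were far apart (log2 -2.58 ± 0.15, limma adjusted p = 2.3e-05), and 3 of its 4 probe sets passed. Rgs1, of the same family, had 354, 286 and 1744 in Gata6-WT and 27.7, 54.6 and 72.5 in Gata6-KO (log2 -3.16 ± 0.59, adjusted p = 0.0084), and it too was highest on Gata6-WT replicate 3.

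Rgs18 fell as well (log2 -1.07, limma adjusted p = 0.0031). The beta-arrestins, which uncouple receptors from G proteins and carry them into the cell, fell to a similar degree: Arrb2 by 0.89 on the log2 scale (adjusted p = 0.0033) and Arrb1 by 0.87 (adjusted p = 0.0044). Arrb2 lies 2 genes from Cxcl16 in RefSeq order (GRCm38.p6). Rgs10 fell (log2 -1.30, adjusted p = 0.025), a call lost when replicate 1 (0.083) or 3 (0.079) of Gata6-KO, or replicate 1 (0.060) or 2 (0.087) of Gata6-WT, was left out.

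Of 20 signal transducers tested, 2 rose and 2 fell, beside 5.61% and 7.46% of all genes. Ptk2b, a calcium-responsive tyrosine kinase, had 600, 542 and 648 in Gata6-WT and 252, 265 and 325 in Gata6-KO (log2 -1.05 ± 0.16, limma adjusted p = 0.0033). Its second tested probe set did not pass (log2 -0.39). Prex1, an exchange factor for Rac, fell by 0.72 on the log2 scale (adjusted p = 0.021), a call lost when replicate 3 of Gata6-KO (0.054), or replicate 2 (0.076) or 3 (0.056) of Gata6-WT, was left out. Gnb1, a G protein beta subunit, rose at its brighter probe set (log2 0.47, adjusted p = 0.011, and 0.051 without Gata6-WT replicate 2). Its second tested probe set did not pass and had the other sign (log2 -0.13). Rhoa, a GTPase of the cytoskeleton, rose (log2 0.58, adjusted p = 0.021), a call lost when replicate 1 (0.076) or 3 (0.075) of Gata6-KO, or replicate 2 (0.086) or 3 (0.057) of Gata6-WT, was left out. Of the 3 tested Rhoa probe sets, 2 passed. Gnai2, the main inhibitory alpha subunit in leukocytes, did not pass (log2 -0.003, adjusted p = 0.99).

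Of 15 regulators of chemokine transcription or mRNA decay tested, 1 passed, beside 13.1% of all genes. Zfp36, which encodes tristetraprolin, a protein that speeds the decay of cytokine and chemokine mRNA, had 2864, 3759 and 12642 in Gata6-WT and 1324, 1356 and 1711 in Gata6-KO. It fell (log2 -1.81, limma adjusted p = 0.030), was highest on Gata6-WT replicate 3, and its call was lost without Gata6-KO replicate 1 (0.084), replicate 2 (0.087) or replicate 3 (0.067). Nfkbia, the inhibitor of NF-kappaB, did not pass (log2 0.14, adjusted p = 0.72).

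**Figure D4:**
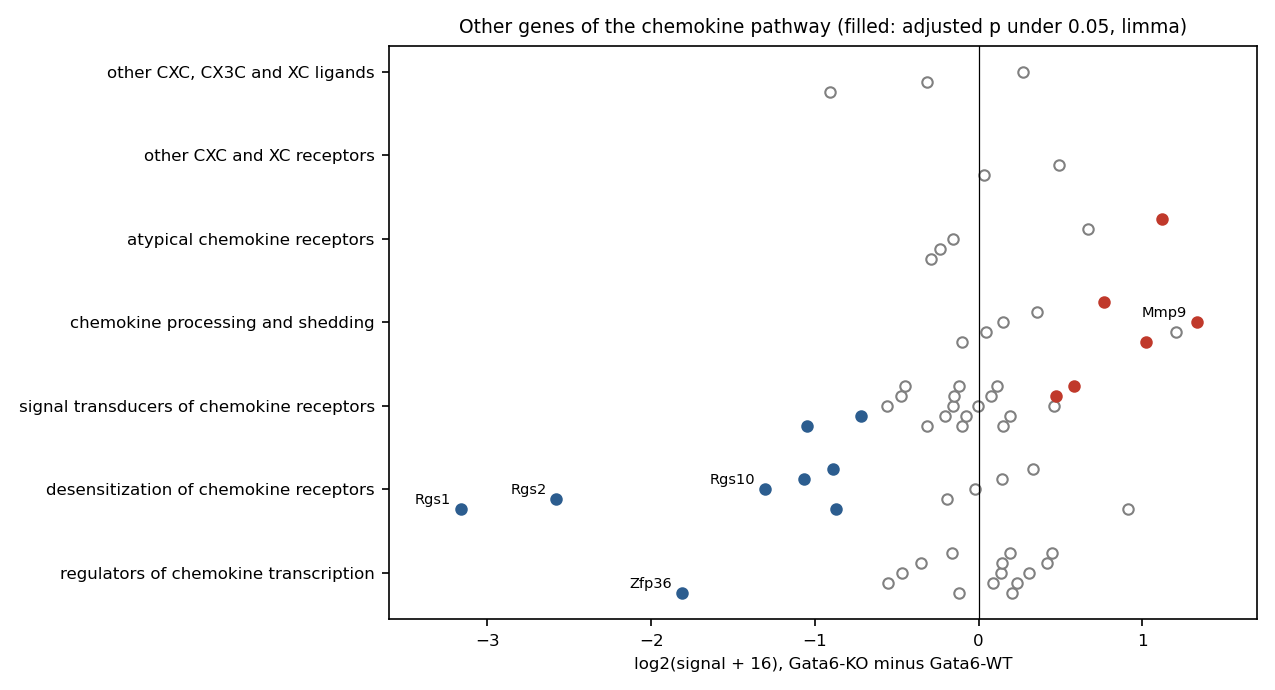
Log2 difference, Gata6-KO minus Gata6-WT, of each tested gene of the 7 pathway lists at its brightest probe set, 1 line per list; filled marks passed the test (limma adjusted p under 0.05) and hollow marks did not. The desensitization list has 6 filled marks, all below 0, and the processing and shedding list has 3, all above 0.

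Markers of other cell types that a sort of peritoneal cells could hold were read beside these values. Of 65 markers in 10 lists, 59 were on the array and 22 were bright enough to be tested. In these lists, which leave out monocytes, 0 rose and 2 fell, beside 5.61% and 7.46% of all genes. The 2 were Cd209a, of dendritic cells (1109, 584 and 281 in Gata6-WT and 101, 92.1 and 158 in Gata6-KO; log2 -2.17, limma adjusted p = 0.010), and S100a8, of neutrophils (log2 -1.20, adjusted p = 0.029, kept in 2 of the 6 fits with 1 array left out, those without Gata6-KO replicate 1 or Gata6-WT replicate 2). The summed signals of the dendritic list were 471 to 735 in Gata6-KO and 978 to 1638 in Gata6-WT, and those of the neutrophil list 428 to 776 and 950 to 1598. The sums were also lower without overlap for mast cell markers (341 to 457 against 531 to 634) and for T and NK cell markers (222 to 256 against 265 to 350), lists in which no gene passed. Sums of the platelet list, given with Pf4, did not overlap either. All these sums were lower in Gata6-KO, as the 4 ligands were, but the brightest genes weigh most in them and members went both ways. In the dendritic list Zbtb46 (log2 0.24) and Itgax (log2 0.13) were higher and Batf3 lower (log2 -0.64), and none of these passed. Below the filter, Flt3 and Ccr7 were higher (log2 0.71 and 0.11). Of the neutrophil markers below the filter, S100a9, Mpo, Ltf and Camp were higher (log2 0.67, 0.64, 0.26 and 0.14) and Mmp8 lower (log2 -0.40). Cd209a had means of 117 in Gata6-KO and 658 in Gata6-WT. S100a8, the only neutrophil marker tested, had 488 and 1111, and Cd8a, the only T and NK cell marker tested, 75.9 and 127. In the platelet list Treml1 was lower (log2 -0.84) and Tubb1 higher (log2 0.93), and neither passed. The part of these sums in the results of the 4 ligands was not tested.

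Of 4 monocyte markers on the array, 2 rose and 1 fell, beside 5.61% and 7.46% of all genes. Ccr2, the receptor that draws monocytes out of the marrow, had 9632, 2401 and 1740 in Gata6-KO and 186, 105 and 106 in Gata6-WT. The groups were far apart (log2 4.58, limma adjusted p = 0.00064), with the highest signal on Gata6-KO replicate 1. Of the 4 tested Ccr2 probe sets, 3 passed. Plac8 rose (log2 0.98, adjusted p = 0.038), a call kept in 2 of the 6 fits with 1 array left out, those without Gata6-KO replicate 3 or Gata6-WT replicate 2, and lost with the sex term (0.051). Hp, haptoglobin, fell from 5647, 4858 and 4047 to 1494, 644 and 281 (log2 -2.85, adjusted p = 0.0042). Fn1 did not pass at its brighter probe set (log2 -0.22, adjusted p = 0.37), but its second tested probe set passed as lower (log2 -1.20). The list's summed signals overlapped, at 57959 to 79661 in Gata6-KO and 67112 to 87490 in Gata6-WT. The part of these changes in the ligands' results was not tested.

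Stromal cells are a known source of CXCL12 and CXCL13. Of the 6 fibroblast markers 5 lay below the filter, and the list summed to 200.2 to 368 in Gata6-KO and 279 to 399 in Gata6-WT. Of the 8 mesothelial markers 6 lay below the filter, with sums of 309 to 318 and 230 to 362. The ranges of both lists overlapped between the genotypes, and the part of stromal cells in the Cxcl12 and Cxcl13 values was not tested.

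The directly adjacent genes of the 4 fallen genes in RefSeq order (GRCm38.p6) did not pass where they were tested. Cnot6l, next to Cxcl13 on chromosome 5, had a log2 difference of -0.34 (limma adjusted p = 0.065), and Zfp637, next to Cxcl12 on chromosome 6, one of -0.42 (adjusted p = 0.096). At a distance of 2 genes, Tifab by Cxcl14 rose (log2 1.00, adjusted p = 0.0049) and Arrb2 by Cxcl16 fell, as given above. Cxcl1, Cxcl2 and Pf4, which share a cluster with Cxcl5, Ppbp, Cxcl3 and Cxcl15 on chromosome 5, did not pass, and the other 4 genes of the cluster lay below the filter.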

How the data were processed

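Total RNA of 6 pools of sorted peritoneal macrophages was measured, 1 array each. The authors deposited linear intensities for 45101 probe sets on every array, made with MAS5 and affy per the submitters' processing notes (no version given). The mean without the top and bottom 2% was 500 on each array. MAS5 leaves low signals noisy, and the number of arrays limits the precision.

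Signals were converted to log2(signal + 16). After 64 control probe sets were removed, the 27022 with a mean above the 40th percentile (log2 5.99, signal 47.5) entered a two-sided test by limma 3.58.1 (R 4.3.3; eBayes with a variance trend). P-values were adjusted by Benjamini-Hochberg, with a threshold of 0.05. Each gene was read at whichever of its tested probe sets had the highest mean. The step was checked on simulated data. Figures were drawn with matplotlib 3.10.9.

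Of the probe sets, 34945 had 1 gene symbol in the array annotation, 932 had several (tested, not named) and 9160 none; 34741 matched the GRCm38.p6 gene table by gene ID and 0 symbols were updated. Members and lists were chosen with earlier results of these data known. Every member was named at every probe set. Of the pathway lists, genes that passed and up to 3 others were named, and of markers, those that passed and some others. Alternatives were other pseudocounts, filters, scalings, variance models, thresholds and probe sets, a replicate block, sex-linked expression, and leaving out each array.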

Additional observations from a re-analysis of the deposited data

How the results depend on the processing

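The count of probe sets that passed, 2916, was 1459 without the variance trend, 1654 in the female-type arrays only, 1251 at an adjusted p under 0.01, 1256 with at least a 2-fold change, and 1856 to 2476 with 1 array left out. The 4 member genes were 2 without the trend, 2 in the female-type arrays and 1 at an adjusted p under 0.01. The 15 pathway genes were 9 without the trend, 8 at an adjusted p under 0.01 and 9 with at least a 2-fold change. Without the trend Cxcl13 and Cxcl16 had adjusted p of 0.095 and 0.055. In each case the cause was not tested, beyond the smaller number of arrays or the stricter threshold where that is the alternative. Pf4 turned sign under quantile normalization (0.12) and ranged from -0.16 to 0.06 with 1 array left out (0.0615 without Gata6-KO replicate 2, 0.0600 without Gata6-WT replicate 3). Cxcl1 ranged from -0.83 to 0.0326, the latter without Gata6-WT replicate 3. The Cxcl12 probe set below the filter had -0.03. The scalings moved the median of all tested probe sets from -0.01 to -0.05 (median) and -0.004 (quantile).

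With the replicate number as a block, 3076 probe sets, 4 member genes and 16 pathway genes passed. Same-numbered arrays correlated at 0.13, 0.07 and 0.07 in their deviations from the group means, each array best with its own number, and the numbers were not taken to pair the samples. The replicate block changed no member's call; of the pathway genes Mmp9 was lost (0.063) and Stat3 (0.032) and Pxn (0.041) were gained.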
